A study of Mus musculus with 2 samples.

Results

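The genes described here are 38 cell cycle genes chosen by symbol from the 32574 genes of the deposited matrices. 15 of them act in or around DNA replication and are called the S phase genes, 22 act from late S phase through cell division and are called the mitotic genes, and Stmn1 was kept apart from both. All 38 symbols were found, each for 1 gene. The cells came from adductor muscle of Apoa1bp-/- mice (labelled AIBP-KO) and of WT control littermates on day 7 after femoral artery ligation, an operation that makes the limb ischaemic. Apoa1bp, listed in the files under its current symbol Naxe, encodes the apolipoprotein A-I binding protein. All cells of the digested muscle were taken with no sort, and no unoperated muscle was analysed here. Each genotype is 1 droplet library with unique molecular identifiers (UMIs). 4 mice of each genotype were operated, and the labels do not say if 1 or several of them gave the cells.

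With 1 library per genotype there is no test between genotypes. Every interval given is a 95% interval for counting error only. Values in brackets after a median over classes and libraries are instead its range, from the lowest to the highest value. A difference between the libraries cannot be told apart from a difference between the mice or the preparations. After filtering, 12351 WT and 8682 knockout cells remained, with 66961852 and 73478217 UMIs and medians of 4169 and 6624.5 UMIs per cell. 43 cell barcodes occurred in both libraries. Of Naxe, 3347 UMIs were counted among WT and 0 among knockout cells, and a count of 0 allows up to 0.0408 CPM (UMIs per 1000000 UMIs). Cells were placed in classes by lists of 10 marker genes each, and the classes are named only as cells that resemble the type. In the 4 classes described most closely, 4 to 6 of the 10 leading genes were the class's own markers and none was a marker of another class. The cells were chosen by these same markers, so this follows from the choice and is no separate check of the classes. 10.7% of WT and 12.3% of knockout cells fell in no class.

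A dividing cell copies its DNA in S phase, checks the copy in G2 and separates the chromosomes in mitosis. The transcripts of the copying machinery are made at the passage from G1 to S phase under E2F factors. Those of the division machinery are made later under complexes of MuvB and FOXM1. These reach promoters through a short element called the cell cycle genes homology region (CHR). In injured muscle, satellite cells leave quiescence and divide as myoblasts before they fuse, while fibroblasts, endothelial cells and tissue macrophages can also divide. Neutrophils no longer divide and served as the background here.

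The promoters of the 2 groups carried different elements. RefSeq promoter windows (build GRCm38.p6, from 250 bases before to 50 bases after the start) were matched by symbol for 31 of the 38 genes, and no window was matched for Ccna2, Tpx2, Aurkb, Kif20a, Mcm4, Exo1 and Stmn1. Motifs were searched on both strands. The CHR, searched as TTTGAA or TTCGAA, was found in 14 of 18 mitotic windows (77.8%) and in 2 of 13 S phase windows (15.4%), against 21.7% of all 27025 genes with a window. Within 50 bases of the start it was found in 13 of the 18 mitotic genes, in 0 of the 13 S phase genes and in 6.12% of all genes. An E2F site, searched as TTTCCCGC, TTTGGCGC or TTTCGCGC, was found in 6 of 13 S phase genes (46.2%), in 1 of 18 mitotic genes (Cdk1) and in 2.12% of all genes. The CCAAT box (CCAAT), which binds NF-Y, was common in both groups, with 16 of 18 and 10 of 13 against 41.1% of all genes. The same held for the GC box (GGGCGG), which binds Sp1, with 15 of 18 and 10 of 13 against 38.2%. Such matches are a description of the letters, and binding was not measured.

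The following stretches run from 120 bases before to 10 bases after the start, on the gene's own strand, with CHR or E2F matches in capitals. They show the 2 patterns for genes whose values are given further on. The CHR genes are Ube2c, the ubiquitin-conjugating enzyme of the anaphase-promoting complex (chr2:164769809-164769938, plus strand), Ccnb2, a mitotic cyclin (chr9:70421545-70421674, minus strand), Cdc20, an activator of that complex (chr4:118437334-118437463, minus strand), Top2a, which untangles replicated DNA (chr11:99024180-99024309, minus strand), and Cdk1, the kinase that drives entry into mitosis (chr10:69352903-69353032, minus strand).
Ube2c: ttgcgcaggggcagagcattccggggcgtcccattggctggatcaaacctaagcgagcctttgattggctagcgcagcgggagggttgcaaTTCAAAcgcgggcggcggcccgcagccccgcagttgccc
Ccnb2: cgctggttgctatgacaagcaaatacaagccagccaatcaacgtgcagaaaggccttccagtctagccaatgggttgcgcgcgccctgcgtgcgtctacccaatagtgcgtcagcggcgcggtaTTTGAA
Cdc20: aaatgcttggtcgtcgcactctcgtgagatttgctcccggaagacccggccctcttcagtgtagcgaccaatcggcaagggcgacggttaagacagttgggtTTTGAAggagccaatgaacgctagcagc
Top2a: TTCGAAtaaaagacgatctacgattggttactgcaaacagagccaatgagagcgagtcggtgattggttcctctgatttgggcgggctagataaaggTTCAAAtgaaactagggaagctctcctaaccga
Cdk1: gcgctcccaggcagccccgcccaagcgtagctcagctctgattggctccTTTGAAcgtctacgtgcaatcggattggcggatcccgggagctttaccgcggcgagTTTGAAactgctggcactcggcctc
In Ube2c and in the site of Top2a nearest the start the element is read on the opposite strand. The E2F genes are Mcm6, a subunit of the replicative helicase (chr1:128359696-128359825, minus strand), and Pclaf, a partner of PCNA (chr9:65890203-65890332, plus strand).
Mcm6: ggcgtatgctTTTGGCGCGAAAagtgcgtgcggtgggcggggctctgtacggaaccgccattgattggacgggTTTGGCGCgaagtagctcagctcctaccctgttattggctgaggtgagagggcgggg
Pclaf: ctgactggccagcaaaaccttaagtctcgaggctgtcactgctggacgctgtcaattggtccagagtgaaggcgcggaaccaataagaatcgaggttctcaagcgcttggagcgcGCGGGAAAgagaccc
In Mcm6 the capitals farthest from the start hold 2 overlapping matches, 1 per strand. The match of Pclaf lies on the opposite strand and spans the start.

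**Figure D1:**
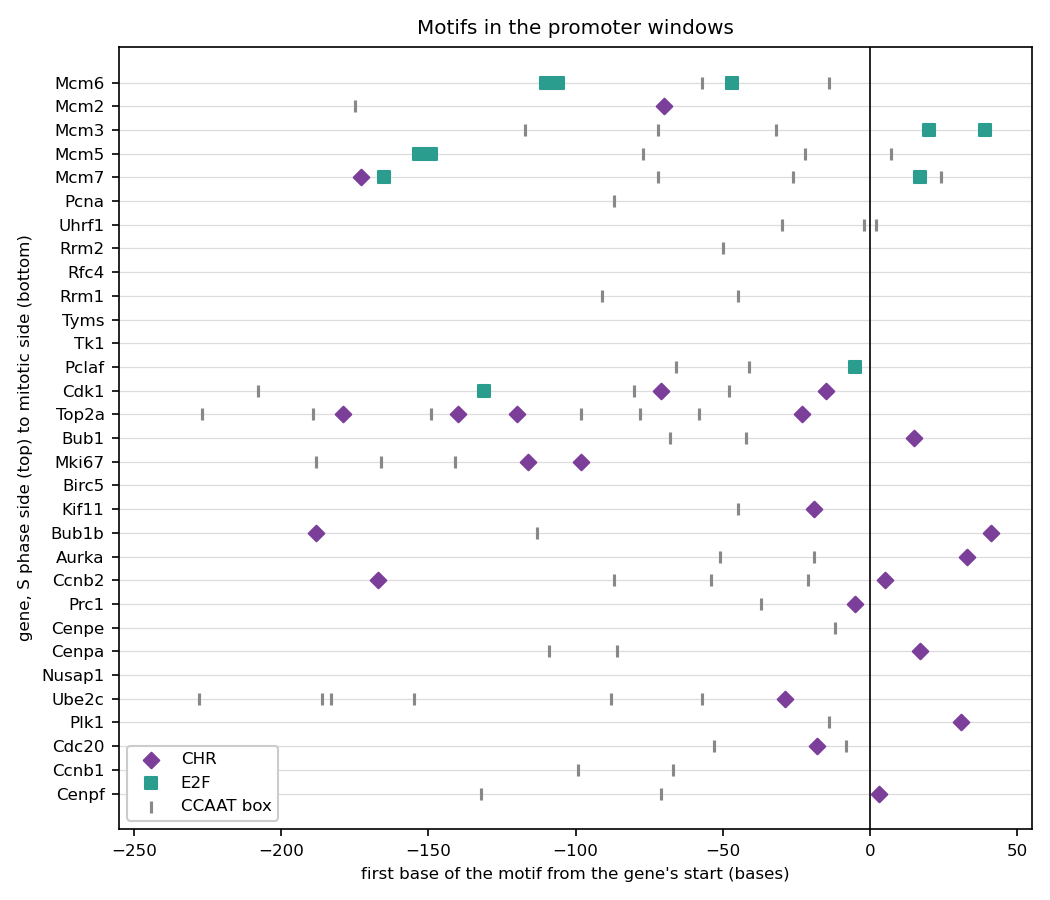
Position of CHR, E2F and CCAAT matches in the RefSeq promoter window of each gene (the window listed first where a gene has several), in bases from the start at 0, with genes ordered from the S phase side to the mitotic side of the order described further on. CHR matches of the mitotic genes gather within 50 bases of the start, where the S phase genes have 0.

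The S phase and mitotic genes were read in most classes, and their summed levels were highest in knockout satellite/myoblast-like cells. Sums are given in CPM, here relative to the UMIs of the class. The mitotic sum was 1075 CPM in 1132 WT and 2566 CPM in 1148 knockout satellite/myoblast-like cells, a ratio of 2.39 (2.33 to 2.45). The S phase sum of the same cells was 644 and 1134 CPM, a ratio of 1.76 (1.70 to 1.82). In fibroblast-like cells (3630 and 1330) the mitotic sum was 334 and 669 CPM, a ratio of 2.00 (1.94 to 2.06), and the S phase sum 257 and 410 CPM, a ratio of 1.60 (1.54 to 1.66). Both sums were therefore higher in the knockout library in the muscle precursor and stromal classes, the mitotic sum by more. In endothelial-like cells (402 and 429) the mitotic sum was 873 and 1277 CPM, a ratio of 1.46 (1.39 to 1.54), and the S phase sum 492 and 677 CPM, a ratio of 1.38 (1.28 to 1.48). Macrophage-like cells (4697 and 2967) stood apart from these, with a mitotic sum of 710 and 662 CPM, a ratio of 0.933 (0.913 to 0.954), and an S phase sum of 406 and 401 CPM, a ratio of 0.989 (0.961 to 1.02). The macrophage intervals lie below those of the other 3 classes. With a looser gate, in which any UMI of a marker counts, the macrophage mitotic ratio was 1.02.

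**Figure D2:**
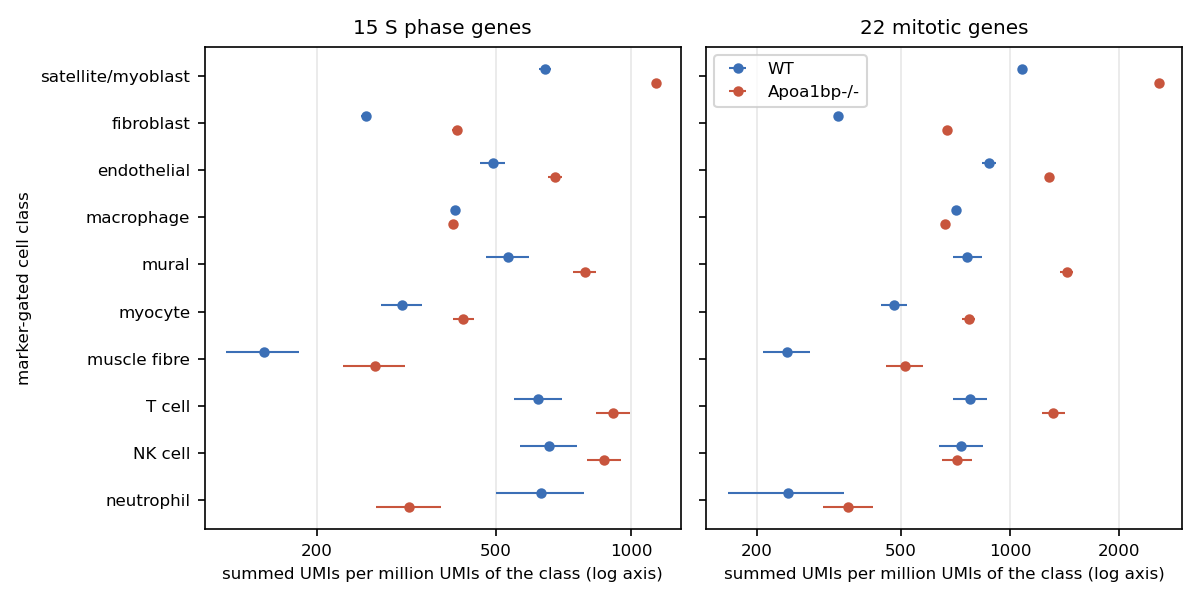
Summed CPM of the 15 S phase genes (left) and the 22 mitotic genes (right) in 10 marker-gated classes, on log axes, for the WT and the Apoa1bp-/- library, with exact Poisson intervals (bars). The mitotic sum runs from 242 CPM in WT muscle fibre-like cells to 2566 CPM in knockout satellite/myoblast-like cells, and the macrophage points of both libraries nearly coincide.

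Among the smaller classes the mitotic ratio was 1.88 (1.70 to 2.08) in mural-like, 1.61 in myocyte-like, 2.12 in muscle fibre-like and 1.70 in T cell-like cells, and the S phase ratios were 1.48, 1.37, 1.76 and 1.47. NK cell-like cells (105 and 142) held a mitotic ratio of 0.975 (0.825 to 1.16) beside an S phase ratio of 1.32 (1.12 to 1.57). Neutrophil-like cells, 62 and 188 in number, had mitotic sums of 244 and 357 CPM and S phase sums of 631 and 321 CPM. That S phase level is not far from that of dividing classes, so a summed level alone does not tell dividing cells from others. In WT it rested on 80 UMIs, of which Pcna gave 18 and Rrm2 16. Before thinning, Pcna UMIs were found in 16.1% of the 62 WT cells, but Rrm2 UMIs in 1.61%, the smallest share that 62 cells can show. Tyms, Tk1, Pclaf and Uhrf1 were among the genes with that same share. Part of the WT level thus came from very few cells and may not describe the class.

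The balance between the groups also differed between classes. In WT the mitotic sum was 1.67 times the S phase sum in satellite/myoblast-like cells (1.61 to 1.73), 1.30 times in fibroblast-like (1.26 to 1.35), 1.78 times in endothelial-like (1.64 to 1.92) and 1.75 times in macrophage-like cells (1.71 to 1.79). In the knockout library it was 2.26 times (2.22 to 2.31), 1.63 times (1.58 to 1.68), 1.89 times (1.81 to 1.97) and 1.65 times (1.61 to 1.70). The balance thus lay further to the mitotic side in knockout satellite/myoblast-like and fibroblast-like cells, while the endothelial intervals of the libraries overlapped. In NK cell-like cells the balance was 1.11 (0.909 to 1.36) in WT, with an interval that spans 1, and on the S phase side at 0.821 (0.722 to 0.933) in the knockout library.

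How many cells held these transcripts was described with cells thinned to 1000 UMIs each, since the libraries differ in depth. A cell had a mitotic call when it held UMIs of at least 2 different mitotic genes after thinning, and an S phase call was made in the same way. In satellite/myoblast-like cells, 93 of 1107 WT cells (8.40%, 6.83 to 10.2%) and 281 of 1145 knockout cells (24.5%, 22.1 to 27.1%) had a mitotic call. In fibroblast-like cells the shares were 2.97% (2.44 to 3.58%) and 5.69% (4.50 to 7.09%), and in endothelial-like cells 8.90% (6.09 to 12.5%) and 15.5% (12.1 to 19.4%). In both of the first classes the intervals of the libraries are separate, and in endothelial-like cells they overlap slightly. Macrophage-like cells had 7.03% (6.30 to 7.82%) in WT and 6.02% (5.18 to 6.95%) in the knockout library. In neutrophil-like cells 0 of 46 WT cells had a call, which allows up to 6.52% by the limit of 3 counts, and 2 of 166 knockout cells did (1.20%). S phase calls had the same order of the libraries in each of these 4 classes, with 7.68 and 19.2% of satellite/myoblast-like, 2.38 and 4.46% of fibroblast-like, 6.23 and 10.3% of endothelial-like and 5.05 and 4.05% of macrophage-like cells, against 2.17 and 2.41% of neutrophil-like cells. The WT fibroblast shares are close to those of the neutrophil-like cells. In the smaller classes the mitotic shares (WT and knockout) were 8.63 and 9.27% in mural-like and 4.32 and 7.24% in myocyte-like cells. They were 3.36 and 2.37% in muscle fibre-like, 7.04 and 7.35% in T cell-like and 8.05 and 3.01% in NK cell-like cells. The intervals of the libraries overlap in each of these smaller classes, so the higher mitotic sums there do not show more cells with a call.

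**Figure D3:**
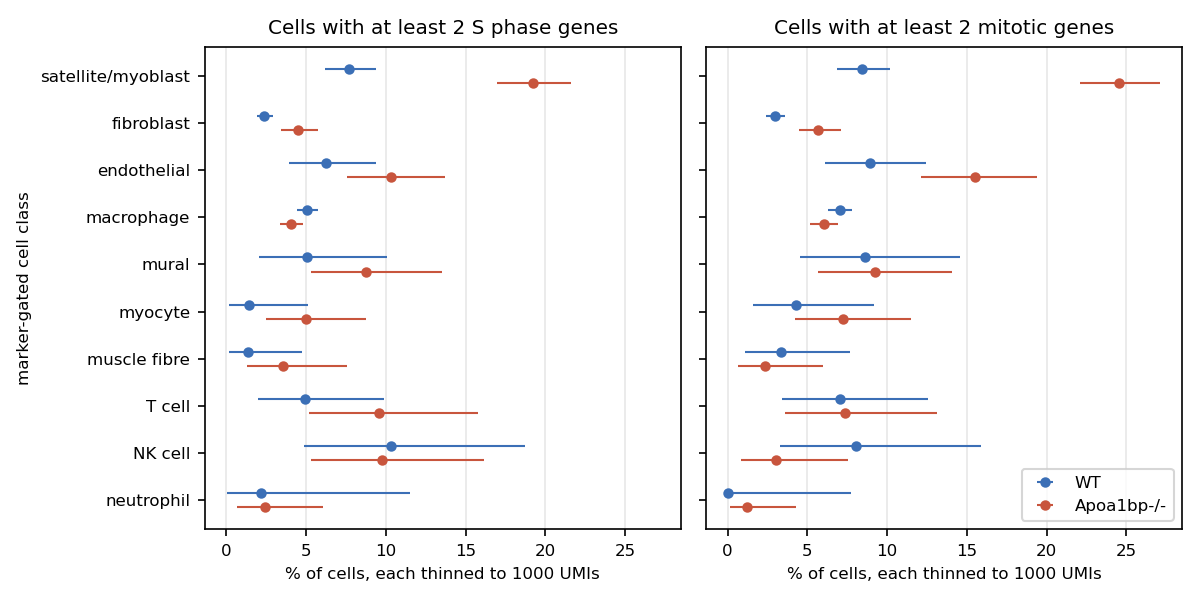
Share of cells with UMIs of at least 2 S phase genes (left) or 2 mitotic genes (right) after thinning each cell to 1000 UMIs, by class and library, with exact Clopper-Pearson intervals (bars). Knockout satellite/myoblast-like cells stand to the right of all other points at 19.2% and 24.5%.

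Without thinning, the mitotic shares were 16.0 and 42.2% in satellite/myoblast-like, 8.40 and 18.1% in fibroblast-like, 13.4 and 34.7% in endothelial-like, 16.5 and 20.4% in macrophage-like and 1.61 and 2.66% in neutrophil-like cells. The macrophage order is turned round by thinning. Cells under 1000 UMIs were left out, 25 and 3 satellite/myoblast-like, 94 and 30 fibroblast-like, 65 and 23 endothelial-like, 219 and 77 macrophage-like and 16 and 22 neutrophil-like. Cells with a mitotic call were also larger libraries. In satellite/myoblast-like cells their median was 11389 UMIs in WT and 11351 in the knockout library, against 3927 and 7006.5 in the other cells. Scrublet, which looks for doublets, had called 12.2% of WT and 7.28% of knockout cells with a mitotic call, and 11.1 and 5.16% of those without, before its calls were removed. Whether larger cells or doublets add to the calls was not tested.

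A call is made from mitotic UMIs, so the mitotic level and share of called cells are high by construction and are given as a description. The mitotic sum in called satellite/myoblast-like cells was 4808 (WT) and 6430 CPM (knockout), and in the cells without a call 212 and 334 CPM. In called cells of the other classes the mitotic sum lay between 4292 and 4852 CPM in both libraries. Called cells held 84.1 and 91.8% of all mitotic UMIs of the satellite/myoblast class and 46.9 and 57.5% of its S phase UMIs, which played no part in the call. In macrophage-like cells those shares were 76.4 and 76.5% for the mitotic genes and 34.9 and 35.7% for the S phase genes.

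Leaving each gene out of its own call gave an order of the genes between cells with only an S phase call and cells with only a mitotic call. The order was read over 6 combinations, the satellite/myoblast, fibroblast and macrophage classes in both libraries, and endothelial-like cells were left out because only 9 WT and 17 knockout cells had an S phase call alone. The helicase subunits Mcm2 to Mcm7, which open the DNA ahead of the fork, stood at the S phase end. Mcm6 had a median log2 ratio (mitotic-only over S-only cells) of -2.07, with a range of -2.53 to -1.20, and Mcm2 one of -1.84. Pcna, the sliding clamp of the polymerases, was at -1.31, Uhrf1, which keeps DNA methylation through replication, at -1.22, and Exo1, a DNA repair exonuclease with few UMIs, at -1.01 with a range of -1.29 to 1.18. The genes of nucleotide supply lay near the middle, with Rrm2 and Rrm1, the ribonucleotide reductase subunits, at -0.71 and -0.16, Tyms, thymidylate synthase, at -0.06, and Tk1, thymidine kinase, at 0.46. Rfc4, a subunit of the clamp loader, was at -0.51 and Pclaf at 0.64. Tk1 and Pclaf were thus higher in the mitotic-only cells in 4 and 5 of the 6 combinations, although both serve replication. Leaving an S phase gene out also moves some cells that hold it into the mitotic-only cells or out of the S-only cells. Without Pclaf, knockout satellite/myoblast-like cells held 182 mitotic-only and 83 S-only cells, against 154 and 93 with all genes. The part of this in the order was not tested.

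Stmn1, which destabilises microtubules, came between the groups at 1.01 (range 0.68 to 1.90). The mitotic genes began with Cdk1 at 1.47, Top2a at 1.56, the checkpoint kinase gene Bub1 at 1.73, Aurkb, the kinase of the chromosomal passenger complex, at 1.75 and Ccna2, a cyclin of S phase and G2, at 2.02. Mki67, the proliferation marker that coats mitotic chromosomes, was at 2.12, and Birc5, another passenger subunit, at 2.13. The far end held Ube2c at 3.47, Plk1, a mitotic kinase, at 3.51, Cdc20 at 3.52 and Ccnb1, the main mitotic cyclin, at 3.85. Cenpf, a kinetochore and nuclear envelope protein, was last at 4.34 (range 3.25 to 5.09). In all 6 combinations each of the 22 mitotic genes was above 0, and each Mcm gene below 0. Neighbours in this order had overlapping ranges, so only distant genes are told apart.

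**Figure D4:**
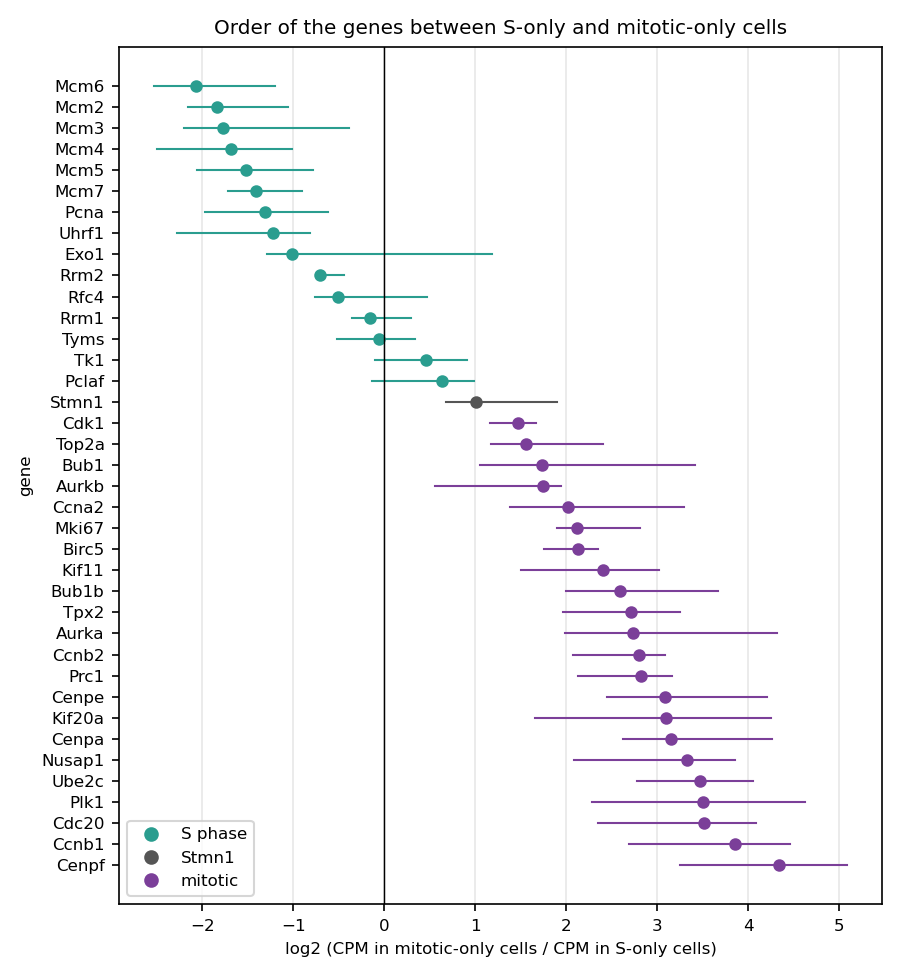
Log2 ratio of each gene's CPM in cells with only a mitotic call over cells with only an S phase call, the gene left out of its own call. Points are medians and lines the range over 6 combinations of class and library, and the order runs from Mcm6 at -2.07 to Cenpf at 4.34.

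A second view of the same cells gave how strongly each gene was gathered in cells with a mitotic call, over the 4 classes in both libraries. At least 25% higher in called cells in all 8 combinations were 22 of 22 mitotic and 11 of 15 S phase genes, against 6.72% of 7772 genes measured in all 8, while 1.06% of those were at least 20% lower in all 8. The calls rest on the other mitotic genes, so the mitotic count follows in large part from the choice of genes. These genes were counted with each left out of its own call and without a CPM limit. The 7772 genes were counted with full calls and at least 5 CPM, so the 2 sides are not fully alike. Mcm6 was least gathered in called cells, at a median of 1.79 times the level of the other cells (range 1.14 to 2.28). Mcm4 (1.89), Mcm3 (1.95) and Mcm2 (2.14) were close to it. Rrm2 was at 8.72, Stmn1 at 10.5, Tk1 at 13.4 and Pclaf at 14.8, which overlaps the mitotic genes. Among these Cenpa, the centromeric histone, was lowest at 11.8, and Nusap1, a spindle protein, Prc1, which bundles the midzone of the spindle, and Ccnb1 were highest at 46.2, 45.0 and 44.1. In knockout satellite/myoblast-like cells Mcm6 stood at 63.7 CPM in called and 56.1 CPM in other cells, a ratio of 1.14 (0.970 to 1.33), while Mki67 stood at 421 and 30.1 CPM. The S phase sum was 3.81 times higher in called than in other WT satellite/myoblast-like cells and 2.34 times in the knockout library, where the other cells held 760 CPM against 422 CPM in WT. In the other 3 classes it was 4.04 to 5.70 times higher.

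Genes whose symbols matched none of the lists were ranked by the lowest of 8 values. The 15 most gathered in cells with a mitotic call were Mxd3, Aspm, Ska1, Depdc1a, Hmmr, Cep55, Sgo1, Pimreg, Iqgap3, Spag5, Kif20b, Ckap2, H2ac8, Cdca8 and Dlgap5. Sgo1 does belong to the condensin and cohesin list, which holds it under its older symbol Sgol1. It is therefore missing from the counts of that list. Their lowest values ran from 18.2 for Mxd3, a partner of MAX, down to 11.0 for Dlgap5, a spindle protein. Aspm and Hmmr, which act at spindle poles, had medians of 47.9 and 37.6, and H2ac8 is a histone gene.

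In satellite/myoblast-like cells every gene was higher in the knockout library. A gene was measured with at least 5 CPM in either library, and was counted as higher from 25% above and as lower from 20% below the WT level. A gene of low level can thus be measured only through the library where it is higher. The shares over all measured genes used the same limit. 15 of 15 S phase and 22 of 22 mitotic genes were higher, where 18.9% of 10331 measured genes were higher and 24.5% lower. The median log2 ratio was 0.79 for the S phase and 1.21 for the mitotic genes, against -0.05 for all measured genes. Mki67 had 350 UMIs (51.7 CPM) in WT and 1906 UMIs (165 CPM) in the knockout library, a ratio of 3.20 (2.85 to 3.60). Cenpe, a kinetochore motor, went from 18.3 to 57.2 CPM, a ratio of 3.12, and Aurkb from 19.2 to 56.9 CPM, a ratio of 2.96. Cdk1 was at 71.3 and 199 CPM, a ratio of 2.78 (2.52 to 3.08). The mitotic genes at the low end were Plk1 with 23.8 and 35.8 CPM, a ratio of 1.51 (1.253 to 1.82), and Nusap1 with 34.4 and 57.2 CPM, a ratio of 1.66 (1.43 to 1.94). Their intervals lie below that of Mki67. These intervals take UMIs as independent, although most mitotic UMIs of this class lay in the cells with a mitotic call. Whether the mitotic genes differ in their ratios was not tested.

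Lowest among the S phase genes of these cells were the helicase subunits Mcm4 at 31.3 and 39.9 CPM (1.27, 1.08 to 1.51), Mcm2 at 26.7 and 34.3 CPM (1.28) and Mcm7 at 57.0 and 77.5 CPM (1.36), together with Rrm1 at 1.36. The other helicase subunits Mcm6, Mcm3 and Mcm5 were higher at 1.62, 1.63 and 1.74, and Rrm2 and Tk1 stood at 1.74 and 1.80. Pcna went from 96.7 to 180 CPM (1.86, 1.70 to 2.03), Pclaf from 121 to 242 CPM (2.00) and Tyms from 41.8 to 90.2 CPM (2.16). Rfc4 was at 23.5 and 63.7 CPM (2.71, 2.28 to 3.24), and Exo1, on 17 and 101 UMIs, at 3.49 (2.08 to 6.22). Rfc4 shares exon bases on the opposite strand with Eif4a2, as do 8 others of the 38 genes with some neighbour (Ccna2, Cdc20, Kif20a, Mcm7, Nusap1, Prc1, Tk1 and Ube2c), and no source used here says whether strand was used in counting. Stmn1 went from 361 to 938 CPM, a ratio of 2.60 (2.49 to 2.72).

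Read per cell after thinning, Mki67 UMIs were found in 2.62% of WT (1.76 to 3.74%) and 10.6% of knockout (8.85 to 12.5%) satellite/myoblast-like cells, beside 0 of 46 WT and 1.20% of knockout neutrophil-like cells. Top2a was found in 3.34 and 11.4% and Ube2c in 4.34 and 11.9%, beside 1.81 and 1.20% of knockout neutrophil-like cells. Pcna was found in 4.61 and 11.5%, but also in 6.52% of WT and 9.04% of knockout neutrophil-like cells, so neither share is separate from the background. Median depths before thinning were 4057.5 and 7847.5 UMIs in satellite/myoblast-like and 1225 and 1577 UMIs in neutrophil-like cells. 14.4% of WT and 6.45% of knockout cells of this class lay within 1 marker of the gate's limit. The class's own markers summed to 3019 (WT) and 2517 CPM (knockout). Among other lists, fibroblast markers went from 2324 to 1572 CPM and macrophage markers from 700 to 414 CPM. Muscle fibre markers went from 621 to 513 CPM. Higher in the knockout library were mural markers (1035 and 1216 CPM), myocyte markers (531 and 661 CPM) and Schwann markers (26.7 and 62.9 CPM). The part of these marker differences in the ratios was not tested.

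**Figure D5:**
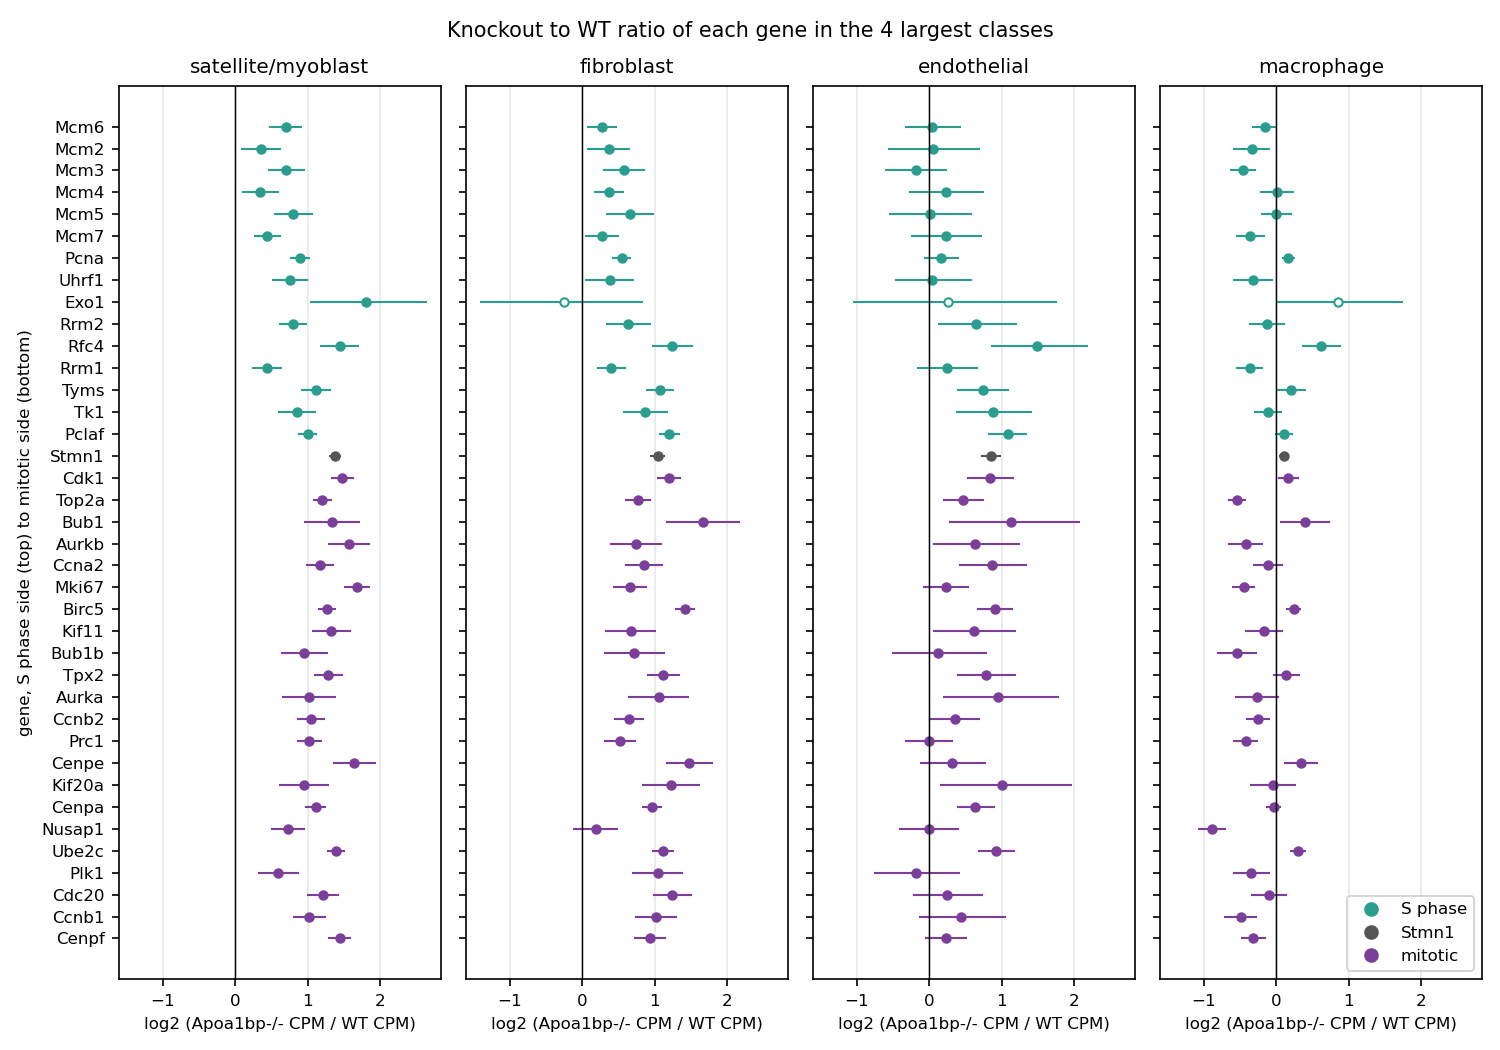
Log2 ratio of knockout over WT CPM for each of the 38 genes in the 4 largest classes, with exact conditional intervals (lines), ordered from the S phase to the mitotic side; an open point is a gene under 5 CPM in both libraries. All 38 points lie right of 0 in satellite/myoblast-like cells, and the macrophage points lie on both sides.

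In fibroblast-like cells 12 of 14 measured S phase and 21 of 22 mitotic genes were higher and 0 lower, where 16.1% of all measured genes were higher and 27.7% lower. The medians were 0.56 and 0.99, against -0.09 for all genes. Birc5 went from 37.8 to 101 CPM (2.68, 2.46 to 2.92), Cenpe from 6.09 to 17.0 CPM (2.79) and Bub1 from 2.43 to 7.68 CPM (3.17, 2.26 to 4.48). Nusap1, with 10.1 and 11.5 CPM, was the mitotic gene not counted as higher (1.14, 0.922 to 1.40), followed by Prc1 at 1.43 and Ccnb2 at 1.56. Mki67 stood at 15.6 and 24.7 CPM, a ratio of 1.59 (1.36 to 1.85), which lies below its interval in satellite/myoblast-like cells. After thinning, Mki67 UMIs were found in 0.848% of WT (0.573 to 1.21%) and 0.692% of knockout fibroblast-like cells (0.317 to 1.31%). The order of the libraries was thus turned round, with overlapping intervals, while Birc5 UMIs were found in 1.56 and 3.92%. In the S phase group Rfc4 (2.37), Pclaf (2.30, from 36.1 to 82.9 CPM) and Tyms (2.105) were highest, and Mcm6 and Mcm7 (both 1.21) lowest. Stmn1 was at 78.4 and 162 CPM (2.06). Other markers moved too: those of satellite/myoblast cells summed to 294 (WT) and 526 CPM (knockout) within this class, and mural markers to 337 and 616 CPM, and their part was not tested.

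In endothelial-like cells 14 of 22 mitotic and 5 of 14 measured S phase genes were higher and 0 lower, where 18.8% of measured genes were higher and 34.8% lower. The medians were 0.53 and 0.22, against -0.14 for all genes. The S phase group was divided: Mcm2 to Mcm7 had ratios of 0.88 to 1.17 and Pcna one of 1.12, whereas Rrm2 (1.57), Tyms (1.66), Tk1 (1.84), Pclaf (2.11, from 74.0 to 156 CPM) and Rfc4 (2.82) were higher. Of the mitotic genes Ube2c went from 83.1 to 158 CPM (1.90, 1.61 to 2.25) and Birc5 from 88.4 to 166 CPM (1.87), while Mki67 stood at 60.0 and 70.2 CPM (1.17, 0.950 to 1.45) and Plk1, Nusap1 and Prc1 at 0.88, 0.99 and 1.00. Aurka, a spindle pole kinase on 18 UMIs in WT, was at 1.94 and at 0.996 after thinning to 1000 UMIs. Stmn1 was at 315 and 567 CPM (1.80). Markers of satellite/myoblast cells summed to 40.4 CPM in WT and 189 CPM in knockout endothelial-like cells, all 10 with UMIs in both. The 113 knockout cells with such a UMI (26.3% of the class) held 1658 CPM of mitotic genes and had a call in 23.0% of cells (15.6 to 31.9%), and the 35 WT cells held 1015 CPM and had a call in 8.82% (1.86 to 23.7%). Cells with such a UMI were deeper, with medians of 9009 UMIs in WT and 14369 UMIs in the knockout library against 2520 and 6872.5 UMIs in the others. In the cells without one, a subset chosen after seeing the data, the mitotic sum was 840 and 1010 CPM, a ratio of 1.20 (1.13 to 1.28), the S phase ratio was 1.26 (1.16 to 1.37), and calls were made in 8.91% (5.95 to 12.7%) and 12.6% (9.05 to 17.0%).

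In macrophage-like cells 2 of 22 mitotic genes were higher and 8 lower, and 1 of 14 measured S phase genes was higher and 5 lower, where 9.68% of measured genes were higher and 30.4% lower. The medians of -0.21 and -0.12 stood beside -0.15 for all genes, so the groups lay close to the background. The genes nevertheless spread widely. Nusap1 went from 31.5 to 17.0 CPM (0.54, 0.475 to 0.611), Top2a from 69.9 to 48.1 CPM (0.69, 0.637 to 0.745), Bub1b, a spindle checkpoint gene, from 13.1 to 8.999 CPM (0.69) and Mki67 from 42.8 to 31.3 CPM (0.73). Birc5 stood at 86.3 and 102 CPM (1.18, 1.11 to 1.253) and Ube2c at 77.1 and 94.9 CPM (1.23, 1.16 to 1.31), on the other side of 1. Bub1, at 5.99 and 7.90 CPM, had a ratio of 1.32 but of 0.852 after thinning, and Cenpe one of 1.27. In the S phase group Mcm3 was at 29.4 and 21.4 CPM (0.73, 0.646 to 0.819), Rrm1 at 0.77, Mcm7 at 0.78 and Rfc4 at 1.54 (1.29 to 1.84). Nusap1 thus had the lowest mitotic ratio in fibroblast-like and macrophage-like cells and was among the 2 lowest in the other classes, and Rfc4 was among the 2 highest S phase ratios in all 4. The summed fibroblast markers were 418 CPM in WT and 177 CPM in knockout macrophage-like cells, and dendritic markers 162 and 56.3 CPM, and their part was not tested.

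By level, knockout satellite/myoblast-like cells were the highest of the 9 classes with at least 100 cells per library for 33 of the 38 genes, NK cell-like cells for 4 and myocyte-like cells for 1. The interval of the highest class was separate from that of the next for 16 of these 38 genes, all with satellite/myoblast-like cells highest, and overlapped it for 22. In WT the highest class varied, with satellite/myoblast-like cells for 12 genes, NK cell-like for 11, T cell-like for 7, mural-like for 4, endothelial-like for 3 and macrophage-like for 1, but the intervals of the highest and the next class overlapped for 36 of the 38. The exceptions were Cdk1 and Ccnb1, both highest in satellite/myoblast-like cells. The macrophage gene was Pcna, at 117 CPM in macrophage-like and 113 CPM in T cell-like cells, whose intervals overlap. For Mki67 the WT order began with NK cell-like (63.4 CPM, on 18 UMIs) and mural-like cells (62.3 CPM), also with overlapping intervals. In the knockout library it began with satellite/myoblast-like (165 CPM) and T cell-like cells (88.0 CPM), whose intervals are separate.

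Other genes of the cell cycle were read from 9 lists, to be set against the 18.9% of all measured genes higher and 24.5% lower in satellite/myoblast-like cells. In satellite/myoblast-like cells all 12 measured genes of origin licensing and firing, 15 of 15 of the replication fork and chromatin assembly, 10 of 10 of the kinetochore and 11 of 11 spindle and cytokinesis motors were higher, with 6 of 7 of condensin and cohesin, 11 of 12 of mitotic entry and the checkpoint, and 7 of 10 cell cycle transcription factors. The kinetochore list had a median log2 ratio of 1.37, with Knl1, a kinetochore scaffold, at 11.7 and 51.7 CPM (4.43, 3.50 to 5.68). Upstream of S phase the picture was mixed, with 4 higher and 2 lower of 8 G1 cyclins and kinases. Cdk4, the kinase of the D cyclins, was at 1.73 and Ccnd1, cyclin D1, at 1.64, while Cdk6 was at 0.66. 5 of 9 CDK inhibitors and pocket proteins were higher and 0 lower, among them Cdkn2c (1.89), Rbl1 (1.86) and Cdkn1a (1.52), which encodes p21.

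In fibroblast-like cells, where 16.1% of all genes were higher and 27.7% lower, the counts of higher and lower genes were 9 and 1 of 10 for the kinetochore, 8 and 0 of 9 for the motors, 8 and 0 of 9 for mitotic entry, 4 and 0 of 5 for condensin, 10 and 0 of 14 for the fork, 5 and 0 of 8 for licensing, 1 and 1 of 6 for the transcription factors, 1 and 3 of 8 for the G1 genes and 4 and 3 of 9 for the inhibitors. Several kinetochore and motor genes counted as higher reached 5 CPM only in the knockout library, so these counts rest partly on the limit. Cdk4 was at 133 and 242 CPM (1.82), but Ccnd2, cyclin D2, at 119 and 70.6 CPM (0.59) and Cdkn1a at 99.1 and 58.8 CPM (0.59). Cdkn1c, which encodes p57, was at 482 and 717 CPM (1.49). In endothelial-like cells (18.8% higher and 34.8% lower over all genes) they were 8 and 1 of 10, 2 and 1 of 9, 7 and 1 of 12, 4 and 0 of 7, 11 and 1 of 15, 6 and 0 of 10, 3 and 2 of 10, 3 and 2 of 8 and 4 and 3 of 9, in the same order of lists. Cdk4 was at 1.99, Ccnd2 at 0.53 and Cdkn1a at 0.63 there, like in fibroblast-like cells. In macrophage-like cells (9.68% higher and 30.4% lower over all genes) they were 1 and 1 of 9, 0 and 7 of 9, 1 and 2 of 8, 2 and 2 of 7, 2 and 2 of 14, 1 and 0 of 7, 0 and 1 of 7, 2 and 3 of 8 and 2 and 3 of 8. 7 of 9 motor genes were lower, among them Racgap1, a cytokinesis regulator, at 23.1 and 17.0 CPM (0.74), and Cdkn2c was at 36.8 and 21.2 CPM (0.58).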

How the data were processed

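Droplet single-cell RNA libraries of digested adductor muscle, 1 per genotype, were analysed. What the authors deposited are raw UMI counts, not normalized, for every gene in each barcode. Per the file headers they were made with Cell Ranger 5.0.0, and per the submitters' processing notes with version 2.1.1. Which of them applies is unknown. No source used here gives the genome build or the use of strand in counting. The libraries held 14035 WT and 9392 knockout barcodes with 80954991 and 80444279 UMIs. Groups follow the genotype label.

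The filters took out barcodes with under 200 genes (49 and 31) and those above 10% mitochondrial UMIs (149 and 197). Scrublet in scanpy called 1486 (10.7%) and 482 (5.26%) doublets, against expected shares of 11.2 and 7.51%, and these were removed. A marker counted in a cell when its level reached the gene's mean over all kept cells. A class needed at least 3 of its 10 markers, no tie, and a lead of at least 2 markers over classes of other lineages. The markers come from a fixed list, and these limits were set after class counts and member sums had been seen. The members and all gene lists were chosen with earlier results of these data known. Class sums were divided by the UMI total of the class, so a ratio is relative to all transcripts of that class. Poisson, conditional and Clopper-Pearson intervals are exact under their counting models. The ratio intervals were tested only on simulated Poisson counts, the model that they assume. That simulation held no cells, so it cannot show how the intervals behave where UMIs gather in few cells. Random thinning used a fixed seed. All 38 members may be named. Other cell cycle genes were named, up to 3 per list and class, from 20 CPM by the interval bound farthest from 1. Genes whose symbols matched no list were named as the 15 most concentrated in cells with a mitotic call. Genes named in the last section on other observations were chosen after their values were seen. Alternatives covered the mitochondrial limit (5%), doublet removal, stricter and looser gates, weighting of cells, thinning (1000 or 2000 UMIs), 3 genes for a call and the promoter window. Python 3.11.15, numpy 2.4.6, scipy 1.17.1, pandas 2.3.3, scanpy 1.11.5, anndata 0.12.19, scikit-learn 1.9.0 and matplotlib 3.10.9 were used. GENCODE served only to find overlapping exons and to check the direction of promoter windows.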

Additional observations from a re-analysis of the deposited data

Results flagged for a closer look

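The mitotic ratio of macrophage-like cells, 0.933, had its interval below 1 while those of 7 other classes (satellite/myoblast, fibroblast, endothelial, mural, myocyte, muscle fibre and T cell) lay above 1. The difference between classes was not tested. In the mural, myocyte, muscle fibre and T cell classes the shares of cells with a mitotic call had overlapping intervals between the libraries. With the looser gate the macrophage ratio was 1.02.

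The S phase ratio of neutrophil-like cells, 0.509 (0.385 to 0.678), had its interval below 1 while those of 8 classes lay above 1. This difference was not tested either, and the WT class held 62 cells. Its S phase sum rested on 80 UMIs, and Rrm2, a sizeable part of them, was found in 1.61% of these cells before thinning.

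Mitotic transcripts were also read in cells that the comparisons do not use. Cells outside all gates held mitotic sums of 1066 and 1380 CPM (WT and knockout), above the 244 and 357 CPM of neutrophil-like cells. The monocyte gate, with 79 and 200 cells, held 1500 and 956 CPM. Its leading genes differed between the libraries, and 36 WT and 50 knockout cells of it lay near the gate's limit.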

How the results depend on the processing

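No paired analysis was possible because each genotype is 1 library, and for the same reason no replicate could be left out. Of 141 values of the comparisons under the alternatives, 83 moved by less than counting error and 58 by more. In satellite/myoblast-like cells the mitotic ratio of 2.39 was 2.51 with doublet calls kept, 2.48 with the stricter and 2.59 with the looser gate, and 3.42 both after thinning to 1000 UMIs and averaged over cells. The S phase ratio of 1.76 was 1.92 with the looser gate, 2.18 averaged over cells and 2.28 after thinning. The knockout to WT ratio of their balance, 1.36, was 1.45 with doublet calls kept, 1.57 averaged over cells and 1.50 after thinning. In fibroblast-like cells the mitotic ratio of 2.00 was 1.90 with doublet calls kept, 2.27 with the looser gate, 1.74 averaged over cells and 1.75 after thinning. The S phase ratio of 1.60 was 2.09, 1.43 and 1.46 under the last 3, and the balance ratio of 1.253 was 1.18 with doublet calls kept and 1.08 with the looser gate. In endothelial-like cells the mitotic ratio of 1.46 was 1.89 averaged over cells, 1.57 after thinning and 1.20 without cells holding a satellite/myoblast marker UMI. The S phase ratio of 1.38 was 1.28 with doublet calls kept, 1.70 averaged over cells and 1.26 without those cells, and the balance ratio of 1.06 was 1.17 after thinning and 0.952 without those cells. In macrophage-like cells the mitotic ratio of 0.933 was 0.961 with doublet calls kept, 1.02 with the looser gate and 0.900 averaged over cells. The S phase ratio of 0.989 was 1.03 with doublet calls kept, 0.955 averaged over cells and 0.904 after thinning, and the balance ratio of 0.944 was 1.00 with the looser gate and 1.01 after thinning. The direction in the macrophage class therefore depends on these settings, and the cause was not tested.

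Shares of cells with a mitotic call after thinning to 2000 UMIs were 12.4 and 29.4% in satellite/myoblast-like, 4.12 and 8.23% in fibroblast-like and 11.2 and 8.85% in macrophage-like cells (WT and knockout), and 11.9 and 23.3% in endothelial-like cells. With 3 mitotic genes for a call they were 6.23 and 19.5%, 1.98 and 3.31%, 4.80 and 4.46%, and 6.82 and 9.36%. With the looser gate they were 7.49% in knockout fibroblast-like and 7.32% in knockout macrophage-like cells. The S phase sum in cells called with 3 genes was 3.35 times (WT) and 1.96 times (knockout) that of other satellite/myoblast-like cells, and 3.35, 2.98 and 3.83 times in knockout fibroblast-like, endothelial-like and macrophage-like cells. The CHR was found in 9 of the 18 mitotic windows in the 250 bases before the start alone. Of 574 values of single genes under the alternatives, 4 were counted as having changed side. Such a change was counted only for a gene that the main comparison of its class had counted as higher or lower. Other genes may also have changed side, and these were not counted. After thinning, Aurka was at 0.996 and Orc6 at 0.986 in endothelial-like cells and Bub1 at 0.852 in macrophage-like cells, and Cdkn1c was at 0.863 in endothelial-like cells without a satellite/myoblast marker UMI. The looser gate, the weighting, the thinning and the subset were applied 1 at a time. The endothelial subset was chosen after seeing the data.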

Other observations

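Genes of the 9 other cell cycle lists were also set against the mitotic calls, as their level in cells with a call over the other cells of the class, in 4 classes and 2 libraries. Of 7772 genes measured in all 8 combinations, 6.72% were at least 25% higher in called cells in all 8 and 1.06% at least 20% lower. All 10 motor genes and all 9 kinetochore genes measured in the 8 were higher in each, with 13 of 15 of the fork list, 7 of 9 of licensing, 6 of 7 of condensin and cohesin, 8 of 9 of mitotic entry, 6 of 9 transcription factors, 2 of 7 G1 genes and 3 of 8 inhibitors and pocket proteins. Foxm1, a transcription factor of mitotic genes, had a median of 18.5 times (range 10.2 to 34.6). Mybl2, a partner of the MuvB complex, had one of 5.41. E2f7 and E2f8, the repressor E2Fs, had medians of 6.80 and 7.72, while E2f3 and E2f4 were at 1.05 and 1.08.

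The CDK inhibitors were divided. Cdkn2c and Cdkn2d, which encode p18 and p19, were higher in called cells in all 8 combinations. Their medians were 4.59 (range 2.79 to 10.7) and 5.28 (range 3.71 to 6.68). Cdkn1c was lower in 6 of 8, with a median of 0.335 (range 0.142 to 1.06), and Cdkn1a in 3 of 8, with a median of 0.828. Among the D cyclins Ccnd2 was lower in 6 of 7 combinations where it was measured (0.504), Ccnd3 in 5 of 8 (0.694), and Ccnd1 had a median of 1.11, while Ccne2, an E cyclin, was higher in 8 of 8 (3.41). Pttg1, which encodes the anaphase inhibitor securin, was higher in 0 of 8, unlike the other measured genes of the condensin and cohesin list. Its median was 0.915 (range 0.651 to 1.19). Called cells also held more UMIs than the others, and the part of this in these values was not tested.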
